A study of Mus musculus with 2 samples.

Results

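The enzymes and carriers that supply cells with serine and with folate-bound one-carbon units were compared between 2 samples of mouse bone marrow cells, macrophages and osteoclasts. The 10 genes were taken as a list and found through the gene symbols of the Illumina bead array's probe annotation. They were Phgdh, Psat1, Psph, Shmt1, Shmt2, Mthfd1, Mthfd2, Mthfd1l, Slc1a4 and Slc1a5. Of these, 9 had at least 1 probe, among 19057 genes with a probe, and together they were read by 18 of 45281 probes. No probe was annotated to Mthfd1l, so it was not analysed here. The macrophages were marrow cells of C57BL/6J mice, aged 8 to 12 weeks, grown with the cytokine M-CSF at 25 ng/ml. The osteoclasts were grown from such cells, after 4 days with M-CSF, by 3 days with M-CSF at the same dose and the osteoclast-inducing cytokine sRANKL at 30 ng/ml. Each sample stood for 3 mice and was read on 1 array, so no difference below has a replicate check and no test was possible. The labels do not state when the macrophages were collected relative to the days with sRANKL, and array and cell type cannot be told apart.

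Serine is made from the glycolytic intermediate 3-phosphoglycerate by the successive action of the products of Phgdh, Psat1 and Psph, or is taken up through carriers such as those encoded by Slc1a4 and Slc1a5. Serine hydroxymethyltransferases pass a carbon of serine to tetrahydrofolate, leaving glycine, and a cytosolic and a mitochondrial set of folate enzymes turn that carbon into the forms used to build purines and thymidylate and to recycle homocysteine. In mouse marrow cultures, osteoclast formation is known to depend on serine in the medium. Many enzymes of the pathway are known from other cells to be induced by the transcription factor ATF4 and in proliferation.

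The only sequences of these genes in the reference tables used here were the stretches before their transcription starts, from RefSeq (GRCm38.p6), which held 10 windows for 9 of the genes and none for Slc1a5. The 250 bases before the start are printed for the first and second enzymes of serine synthesis, which differed in opposite directions, and for the cytosolic and mitochondrial serine hydroxymethyltransferases. The windows lay at chr3:98339970-98340219 for Phgdh, chr19:15925060-15925309 for the upstream of the Psat1 starts, chr11:60811266-60811515 for Shmt1 and chr10:127522445-127522694 for Shmt2, all on the minus strand, and are given 5′ to 3′ along the gene. Capitals mark a CCAAT box, or a GC box (GGGCGG), on either strand.
Phgdh: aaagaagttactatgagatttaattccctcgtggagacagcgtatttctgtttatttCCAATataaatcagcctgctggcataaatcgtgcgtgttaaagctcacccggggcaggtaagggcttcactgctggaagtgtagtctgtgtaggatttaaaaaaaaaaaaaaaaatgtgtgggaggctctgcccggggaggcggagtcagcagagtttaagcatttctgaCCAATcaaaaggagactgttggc
Psat1: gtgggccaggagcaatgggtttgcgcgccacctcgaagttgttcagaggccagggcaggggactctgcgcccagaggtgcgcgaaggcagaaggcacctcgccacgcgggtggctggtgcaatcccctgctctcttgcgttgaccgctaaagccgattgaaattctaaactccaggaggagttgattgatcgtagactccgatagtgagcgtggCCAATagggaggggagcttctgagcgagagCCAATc
Shmt1: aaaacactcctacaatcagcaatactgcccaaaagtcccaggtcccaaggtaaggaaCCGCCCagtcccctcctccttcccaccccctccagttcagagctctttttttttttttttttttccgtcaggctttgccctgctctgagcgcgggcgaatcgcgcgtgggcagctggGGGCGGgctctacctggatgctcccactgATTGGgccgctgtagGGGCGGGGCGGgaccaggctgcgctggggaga
Shmt2: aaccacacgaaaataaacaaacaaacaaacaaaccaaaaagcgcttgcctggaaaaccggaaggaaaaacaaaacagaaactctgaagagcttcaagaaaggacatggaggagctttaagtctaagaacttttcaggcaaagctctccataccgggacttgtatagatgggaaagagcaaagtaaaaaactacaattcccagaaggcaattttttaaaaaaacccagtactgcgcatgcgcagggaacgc
The motifs searched on both strands were the composite ATF4 element TGATGNAA, the cyclic AMP element TGACGTCA, the E-box CACGTG, the E2F element GGCGGGAA, the CCAAT box and the GC box. The CCAAT box was found in 7 of the 10 windows of the listed genes and in 33.8% of all 32851 windows of this length in the table. In Phgdh it began 193 and 23 bases before the start, in Psat1 36 and 6 bases, and in Shmt1, on the opposite strand, 47 bases. Shmt2 held neither motif. The GC box was found in 6 of the 10 windows, against 32.7% of all windows, and 4 times in Shmt1, where the last pair shares a base. The E2F element was found in 1 window, that of Mthfd1, 54 bases before the start, against 1.86% of all windows. The ATF4 element, the cyclic AMP element and the E-box were found in 0 of the 10 windows, against 3.45%, 1.55% and 6.02% of all windows. The window of the other Psat1 start, not printed, held a GC box and no CCAAT box. Any part of these motifs in the differences was not tested. These matches describe letters within 250 bases and not binding.

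Most of the detected enzymes were higher in the osteoclast sample, and the first enzyme of serine synthesis was not. Of 7 genes detected on at least 1 array, 6 were at least 2-fold higher and 0 were at least 2-fold lower, while Phgdh lay just within 2-fold on the lower side. Among all 13149 detected genes, 11.4% were at least 2-fold higher and 8.12% at least 2-fold lower by the same rule. The median difference of the 7 genes was 1.96 log2 units (3.89-fold), against -0.06 for all detected genes. Differences here are osteoclast minus macrophage on the scale log2(background-corrected intensity + 16) after quantile normalization, which understates the change of dim probes. Detection of a probe meant an intensity over 4.24 for macrophages or 7.24 for osteoclasts, limits that a normal background with the estimated mean and spread would pass at a one-sided p of 0.01. Counted by probe, 13 of the 18 were detected on at least 1 array and 12 of these were at least 2-fold higher, against 10.3% of all detected probes with 1 gene. In bulk RNA of this kind, fewer cells of a type and less RNA per cell cannot be told apart.

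**Figure D1:**
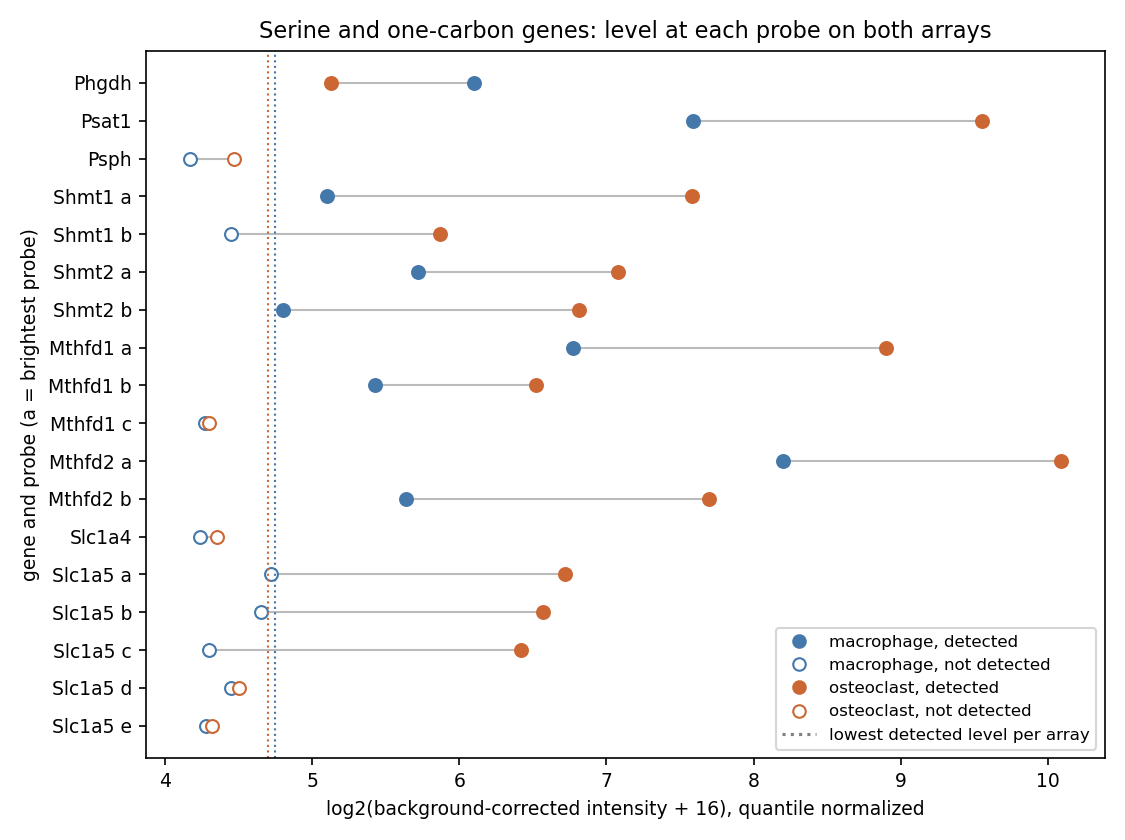
Level at each of the 18 probes in macrophages (blue) and osteoclasts (orange), as log2(background-corrected intensity + 16) after quantile normalization, with 1 array per group and no error bars. Filled points are detected and open points are not, dotted lines are the lowest level of a detected probe on each array (4.75 and 4.70), and the 5 probes with both points open were detected on neither array. Phgdh is the only detected probe with the orange point to the left.

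The steps of serine synthesis from 3-phosphoglycerate went in different directions. Phgdh, the dehydrogenase that commits 3-phosphoglycerate to serine, had an intensity of 33.2 in macrophages and 19.4 in osteoclasts at its 1 probe, both detected. It was 1.96-fold lower in osteoclasts, a difference of -0.97, and 8.59% of all detected genes had a smaller (more negative) difference. Psat1, the aminotransferase of the second step, had an intensity of 123 in macrophages and 973 in osteoclasts, likewise at 1 probe. It was 3.89-fold higher in osteoclasts, a difference of 1.96 that was larger than those of 96.2% of detected genes. Psph, the phosphatase of the last step, was not well above background in either sample, at intensities of -9.13 and 1.03, so no fold is given. Each of these genes has a single probe, so no second probe bears on the opposite directions of Phgdh and Psat1.

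Both serine hydroxymethyltransferases were higher in the osteoclast sample. Shmt1, the cytosolic enzyme, read 9.79 in macrophages and 236 in osteoclasts at its brightest probe and was 5.56-fold higher (2.48 log2 units). Its other probe, at -0.14 and 52.8, was detected in osteoclasts only and was at least 2.18-fold higher. Such a bound sets the bright value against the dimmest probe that counted as detected in the other sample, or the gene's own dim value where that is higher. Shmt2, the mitochondrial enzyme, had intensities of 22.7 and 163 at its brightest probe and was 2.57-fold higher. Its other probe, at 4.98 and 130, was 4.03-fold higher. The differences of the Shmt1 probes (2.48 and 1.42) and of the Shmt2 probes (1.36 and 2.01) overlapped in range, so no order of the cytosolic and the mitochondrial enzyme can be read from them.

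The folate enzymes that carry the one-carbon unit onward were higher as well. Mthfd1, the cytosolic enzyme with 3 activities that interconverts methylene, methenyl and formyl tetrahydrofolate and formate, read 60.9 in macrophages and 620 in osteoclasts at its brightest probe, a 4.37-fold difference. A second probe, at 16.4 and 102, was 2.12-fold higher, and the last, at -4.47 and -4.78, was detected on neither array. Mthfd2, the mitochondrial dehydrogenase and cyclohydrolase, low in most adult tissues and high in dividing cells, had intensities of 196 and 1415 at its brightest probe and was 3.72-fold higher. Its other probe, at 21.0 and 259, differed by 2.06 log2 units against 1.90, so its probes lay close together. Mthfd2l, a mitochondrial relative of Mthfd2, was not well above background in either sample (-4.27 and -6.96).

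The carriers could be read for Slc1a5 only. Slc1a5, an exchanger of glutamine, serine and other neutral amino acids, was not well above background at any of its 5 probes in macrophages and was detected at 3 of them in osteoclasts. The brightest probe read 3.82 in macrophages and 120 in osteoclasts, and Slc1a5 was at least 3.91-fold higher there. The other detected probes went from 2.82 to 107 and from -3.55 to 92.9, and gave bounds of at least 3.54-fold and at least 3.18-fold higher. The remaining pair of Slc1a5 probes, at -0.21 and 1.74 and at -4.08 and -4.10, was detected on neither array. Slc1a4, an exchanger of alanine, serine, cysteine and threonine, was not well above background in either sample, at -5.22 and -3.00.

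The direction of the 7 genes was the same in every setting run, and Phgdh and Shmt2 crossed 2-fold in some, while the sizes moved. Without normalization between arrays the median of all detected genes moved from -0.06 to 0.58, and the median of the 7 genes from 1.96 to 2.73. In that setting 29.0% of all detected genes were at least 2-fold higher, and 6 of the 7 listed genes were. Phgdh was below 0 in every setting run, from -0.39 without normalization to -1.20 with median scaling. It passed 2-fold with median scaling, as did 13.9% of all detected genes on the lower side, and without background correction (-1.07), as did 8.91% of them. In the authors' deposited processed table, on a log2 scale, Phgdh was 6.18 in macrophages and 5.34 in osteoclasts. Psat1 was 7.72 and 9.65 there, Shmt1 5.58 and 7.78, and Shmt2 6.03 and 7.30. Mthfd1 was 6.94 and 9.03, Mthfd2 8.29 and 10.18, and Slc1a5 5.24 and 6.99. Of the genes not detected in either sample, Psph was 3.90 and 4.94 in the authors' table, a difference of 1.03, and Slc1a4 was 4.42 and 4.56. The same 6 detected genes were at least 2-fold higher in it, with differences from 1.27 for Shmt2 to 2.19 for Shmt1, against 11.6% of all detected genes. With an offset of 50 in place of 16, Shmt2 came to 0.97, Shmt1 to 1.72 and Slc1a5 to 1.22. Averaging all probes of a gene, undetected ones included, gave 1.08 for Mthfd1 and 1.23 for Slc1a5.

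**Figure D2:**
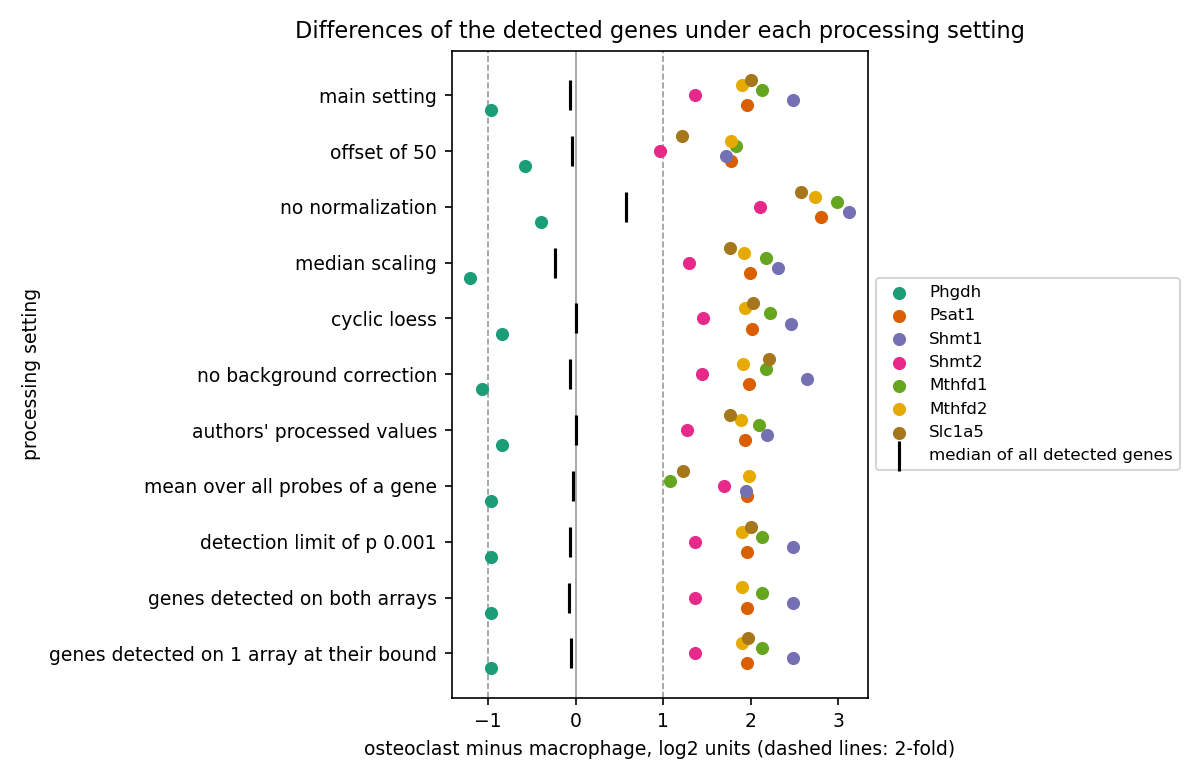
Difference of the 7 detected genes (coloured points) and the median of all detected genes (black bar) under each processing setting, in log2 units, osteoclast minus macrophage, with 1 array per group. Dashed lines are 2-fold. Phgdh stays left of 0 and the other 6 genes right of 0.9 throughout, and without normalization all points and the bar shift to the right. Slc1a5 has no point among genes detected on both arrays.

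Genes around the pathway were then described from lists of its further steps, to be read against the 11.4% of all detected genes at least 2-fold higher, the 8.12% at least 2-fold lower and the median of -0.06, or 0.58 without normalization. The folate and glycine lists hold few genes past 2-fold, and nothing particular to them is read from these counts. Of 14 measured genes of folate supply and other folate enzymes, 12 were detected; 2 of them passed 2-fold upward, 0 downward and 10 neither, and the median was 0.18. The higher ones were Tyms (thymidylate synthase, which consumes methylene tetrahydrofolate), at 61.6 in macrophages and 1118 in osteoclasts or 7.87-fold, and Folr2 (folate receptor beta), at 376 and 2829 or 4.14-fold. A second Tyms probe, detected in osteoclasts only, was at least 4.84-fold higher, while 2 dimmer probes detected in macrophages only differed by -0.46 and -0.91. Slc25a32, the mitochondrial folate carrier, differed by 0.78.

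Genes listed for glycine cleavage and for other steps of serine or glycine metabolism differed in part. Of 6 detected, 2 passed 2-fold upward, 0 downward and 4 neither, and the median was 0.29. Gcat, which yields glycine in the breakdown of threonine, went from 109.9 to 864 (3.80-fold higher), but its other probe detected on both arrays differed by 0.03. Gldc, the decarboxylase of the glycine cleavage system, was detected in osteoclasts only, at -7.29 in macrophages and 45.8 in osteoclasts, and was at least 2.01-fold higher.

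De novo purine synthesis, which uses formyl tetrahydrofolate and glycine, had the highest median of the 7 metabolic and ATF4 lists described here. All 12 measured genes were detected on both arrays, 6 passed 2-fold upward, 0 downward and 6 neither, and the median was 1.04 (2.05-fold). Atic, whose product takes the second formyl group into the purine ring, went from 105 to 819 (3.75-fold higher). Its other probes detected on both arrays were 2.29-fold and 2.22-fold higher, and its last was detected on neither. Ppat, the amidotransferase that opens the pathway, went from 38.6 to 281 (2.92-fold). Adss and Adssl1, the adenylosuccinate synthases, were 2.69-fold and 2.56-fold higher, Prps1, which makes the ribose donor, 2.64-fold and Pfas, of a middle step, 2.28-fold. A second probe of Pfas differed by -0.42 and one of Adss, detected in macrophages only, by -0.19, and averaging probes lowered the list median to 0.63. Gart, whose product takes the first formyl group and which was singled out after its value was seen, differed by 0.88. Its other probe, detected on both arrays, differed by 1.52.

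The lists of the methionine cycle, serine-using lipid synthesis and other amino acid carriers held genes past 2-fold in both directions, and their medians lay near 0 with a sign that depended on the scaling. Of 8 detected genes of the methionine cycle and transsulfuration, 1 passed 2-fold upward, 1 downward and 6 neither, and the median was -0.28 (0.29 without normalization). Ahcy, which splits S-adenosylhomocysteine, was 2.98-fold higher (49.4 to 356), and Ahcyl2, a related protein, was 2.84-fold lower (117 to 61.6), with a difference of -0.72 without normalization. Of 9 detected genes of lipid synthesis from serine, 1 passed upward, 1 downward and 7 neither, and the median was -0.29 (0.46 without normalization). Serinc3, a membrane protein of the serine incorporator family, was 4.45-fold lower (5138 to 1869), and Serinc2, detected in osteoclasts only, at least 2.38-fold higher. Of 15 detected carriers, 1 passed upward, 3 downward and 11 neither, and the median was 0.07 (-0.21 with median scaling and 0.60 without normalization). Sfxn1, the carrier that brings serine into mitochondria, went from 819 to 3561 (2.53-fold higher) and by 1.11 at its other probe. Slc7a7 (2.80-fold), Slc3a2 (2.22-fold) and Slc36a1 (2.11-fold) were lower in osteoclasts. Slc7a7 encodes a light chain of a cationic amino acid exchanger, Slc3a2 the heavy chain shared by several exchangers and Slc36a1 a proton-coupled carrier of lysosomes. Without normalization these 3 differed by -0.62, -0.35 and -0.40, within 2-fold. Slc7a11, the cystine carrier, differed by -0.70, and by 0.01 without normalization, where its sign turned, and another of its detected probes differed by 0.38.

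The list of Atf4 and genes known from other cells as its targets held differences in both directions after normalization. Control by ATF4 was not measured here. Of 14 detected, Atf4 included, 4 passed 2-fold upward, 1 downward and 9 neither, and the median was 0.55. Without normalization 13 of the 14 were above 0, as were 10449 of all 13149 detected genes. The median of the 14 was then 1.29, against 0.58 for all detected genes. Asns, the asparagine synthetase, went from 74.6 in macrophages to 1104 in osteoclasts (6.63-fold higher). Aldh18a1, the first enzyme of proline synthesis, was 2.89-fold higher, Chac1, which degrades glutathione, 2.40-fold and Trib3, a pseudokinase detected in osteoclasts only, at least 2.31-fold. A second Trib3 probe, also detected in osteoclasts only, differed by 0.29 and was at least 1.11-fold higher. Atf4 itself went from 961 to 2437 and differed by 0.54, within 2-fold, or by 1.33 without normalization, past it. Cebpb, a transcription factor, was 2.18-fold lower, with a difference of -0.42 without normalization.

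**Figure D3:**
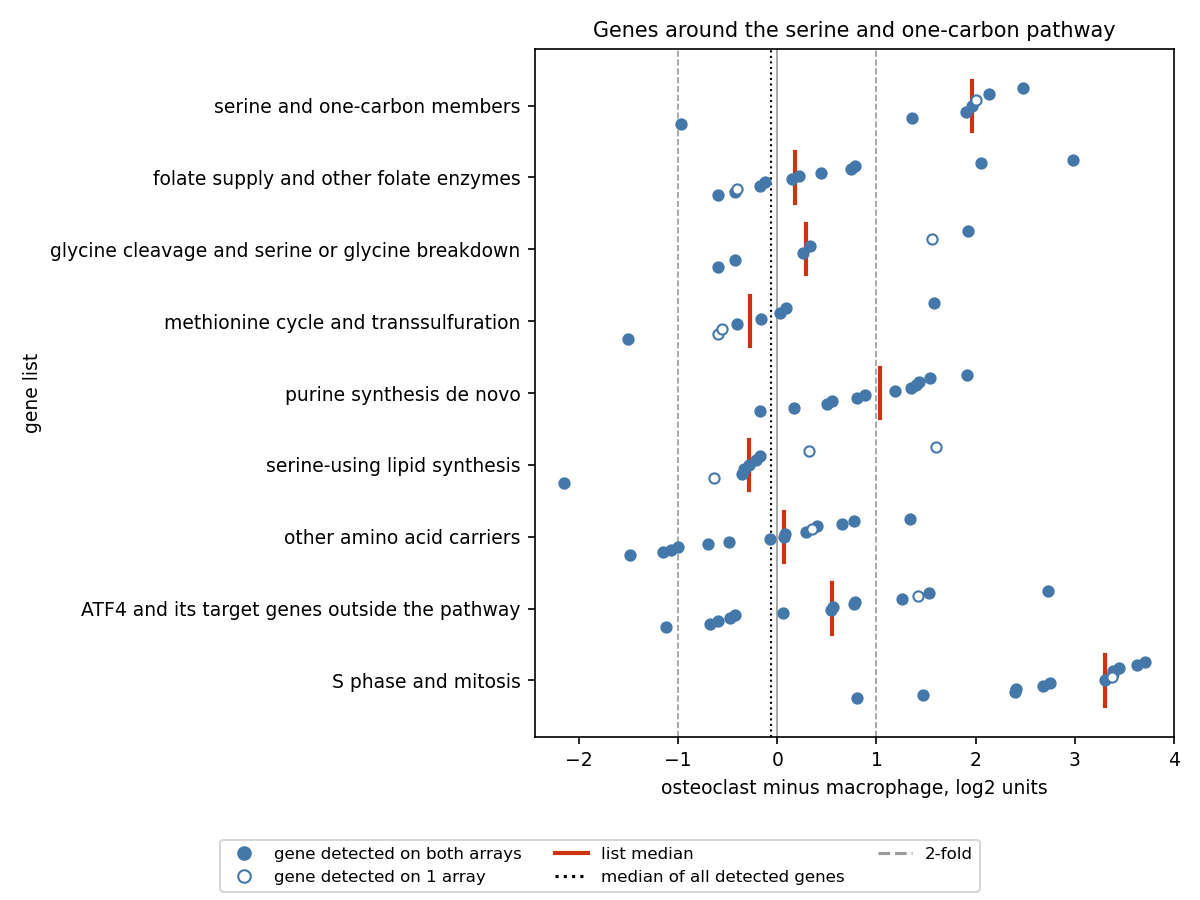
Difference of each detected gene (points, filled where detected on both arrays) by list, in log2 units, osteoclast minus macrophage, with 1 array per group. Red bars are list medians, the dotted line is the median of all detected genes (-0.06) and dashed lines are 2-fold. The serine and one-carbon genes other than Phgdh lie from 1.36 to 2.48. Purine synthesis genes spread from -0.18 to 1.91, and S phase and mitosis genes reach 3.71.

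Cell cycle genes and markers of other cells also differed between the arrays, in both directions. Of 13 detected genes of S phase and mitosis, 12 passed 2-fold upward, 0 downward and 1 neither, and their median was 3.31, or 1.87 with all probes of a gene averaged and 2.24 with an offset of 50. Rrm2, a subunit of ribonucleotide reductase, went from 25.5 to 475, and Mcm5, of the replicative helicase, from 178 to 3600. Osteoclast markers had a median of 5.15 and macrophage markers -2.62, in the direction of the labels, although Atp6v0d2 was detected on neither array. Of 8 detected osteoclast markers 7 were at least 2-fold higher, and Itgb3 differed by 0.71, within 2-fold. All 9 macrophage markers were at least 2-fold lower, or 7 of them without normalization. All 6 detected epidermal markers and all 8 skeletal muscle markers were at least 2-fold higher on the osteoclast array, with intensities summed over the list going from 116 to 18460 and from 153 to 13660. Krt1, Krt5, Krt14, Lor, Acta1, Ckm, Myh4 and Myl1 were not well above background in macrophages at the probes that stand for them. Of 7 detected fibroblast markers 5 were at least 2-fold higher, or 4 with genes detected on 1 array at their bound. The sum of that list went from 39.9 to 1996, of which Dcn alone read 1600 in osteoclasts. All 10 granulocyte markers were at least 2-fold lower, or 9 of them without normalization, with a sum going from 49040 to 942. Both detected lymphocyte markers were lower too. The sums are of intensities before normalization, and over all genes such a sum went from 7220000 to 11750000. The part of cell division and of other cell types in the values of the serine and one-carbon genes was not tested.

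**Figure D4:**
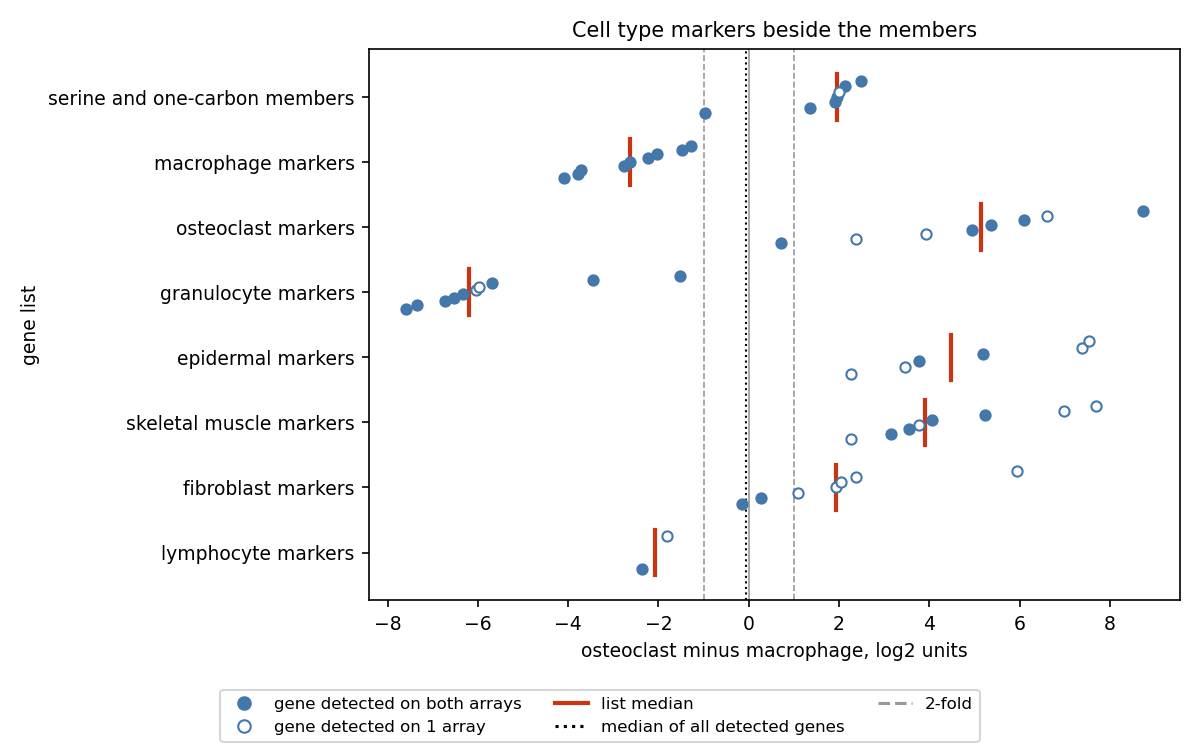
Difference of each detected marker gene by cell type, beside the serine and one-carbon genes, in log2 units, osteoclast minus macrophage, with 1 array per group (points filled where detected on both arrays, red bars the list medians, dotted line the median of all detected genes, dashed lines 2-fold). Granulocyte markers reach -7.59, and epidermal and skeletal muscle markers reach 7.54 and 7.70.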

How the data were processed

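Messenger RNA of 1 macrophage and 1 osteoclast sample was read on Illumina bead arrays with biotin-labelled cRNA, per the labels' protocols. The deposited non-normalized table gives 1 linear intensity per probe and array, with 38.4% and 36.9% of values below 0, so a background had been subtracted; the sources used here name no software. The authors' processed table holds log2 values with medians of 5.00 and 5.05, and its normalization is not given. Over 5844 probes above 200 on both arrays, its differences followed the log2 intensity ratios with slope 0.97. Its median difference over all detected genes was 0.0, against 0.58 without normalization, so its arrays were levelled by a method not stated.

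The table held no detection p-values or control probes. The background of each array was estimated by the mode and by the spread of the values under it (-3.94 and SD 3.52 for macrophages, -5.33 and SD 5.40 for osteoclasts), entered into limma's normexp, and followed by an offset of 16 and quantile normalization of all probes (limma 3.58.1, R 4.3.3; Python 3.11.15). Of 45281 probes, 49.2% and 50.8% were detected, 34885 had 1 gene, 18 several and 10378 none listed. A gene was read at its brightest probe. With 1 array per group no test was run; genes were called by size, at least 2-fold. Background correction and normalization were tested on simulated data, with changes set and checked in bright probes only. Dim probes, detection calls, bounds and the motif search were not covered by that test. The listed genes, the other lists and the rules were chosen with earlier results of these data known. Named genes were the 10 listed, members of other lists at least 2-fold apart (examples only from the S phase and marker lists), and preset neighbours of the pathway. Entrez identifiers of 34807 probes matched RefSeq (GRCm38.p6). Alternatives were another offset, scaling, background, detection limit, probe rule and starting table.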

Additional observations from a re-analysis of the deposited data

How the results depend on the processing

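No paired analysis was possible because each group holds 1 array and the labels number no replicates, and for the same reason no replicate could be left out. Over 69 differences of single listed genes under 10 alternatives, 66 kept their direction and their side of 2-fold; Phgdh passed 2-fold on the lower side with median scaling (-1.20) and without background correction (-1.07), so that the count of listed genes at least 2-fold lower was 1 in each against 0, and Shmt2 came within 2-fold with an offset of 50 (0.97). Not all of the 69 could change. The stricter detection limit and the limit to genes detected on both arrays only select genes and keep their differences. The bound alters only a gene detected on 1 array, and averaging cannot move a gene with 1 probe. The count at least 2-fold higher was 5 or 6 throughout, and the median from 1.69 to 2.73. The cause was not tested. List medians that turned sign were those of the methionine cycle (0.29) and of serine-using lipid synthesis (0.46) without normalization, and of other carriers (-0.21) with median scaling. Those that crossed 2-fold were ATF4 genes without normalization (1.29 against 0.55) and purine synthesis with an offset of 50 (0.93) or probes averaged (0.63, against 1.04). The S phase and mitosis median ranged from 1.87 to 3.85. Among all detected genes past 2-fold, 58.4% were higher, against 91.0% without normalization and 41.7% with median scaling. They numbered 1502 higher and 1068 lower, against 3808 and 376 without normalization and 1305 and 1828 with median scaling. Dim probes limit what Psph and Slc1a4, at background on both arrays, can show.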
